A study of Homo sapiens with 10 samples.

Results

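The cyclins, cyclin-dependent kinases and kinase inhibitors that govern the G1 phase were measured in 501Mel cells, an established human melanoma line. Of 10 genes in this group (CDKN1B, CDKN1C, CDKN2A, CDK4, CDK6, CDK2, CCND1, CCND3, CCNE1 and RB1), 7 had Ensembl transcripts assigned to them by the rule that chose the members, 8 transcripts in all out of 187626 listed, and all 8 passed the filter on low counts. The transcripts assigned are main ones, 2 for CDKN2A and 1 for each of the other 6 genes. Further transcripts of these genes were not identified here. No transcript was assigned to CDKN1C, CCND3 or CCNE1, and these 3 genes were not analysed here. Each value below belongs to a single transcript, not to the sum over all transcripts of a gene, because the tables used here do not pair Ensembl transcripts with genes. Polyadenylated RNA was sequenced from cells that received the small interfering RNA siIRF4 (3 libraries) or siCTRL (3 libraries). All 6 libraries come from this 1 cell line, and the labels give neither the siRNA sequences nor the time after transfection. Nothing in the labels says whether replicates were separate cultures, so p-values measure only the spread between these libraries. IRF4, the gene the siRNA targets, is an interferon regulatory factor with a role in pigment cells. Its transcripts were not assigned, so its level was not analysed here and the labels were not checked on it. Markers of melanocytes and of other cell types, and the further G1 genes planned for comparison, were not analysed for the same reason.

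Passage through G1 is driven by D-type cyclins, which activate CDK4 and CDK6, and then by E-type cyclins, which activate CDK2. These kinases phosphorylate the retinoblastoma protein, encoded by RB1, which otherwise binds E2F factors and holds back genes of S phase. The INK4 inhibitors bind CDK4 and CDK6, and the CIP/KIP inhibitors, such as the CDKN1B product p27, bind cyclin-kinase complexes. In melanoma this pathway is a frequent site of inherited and acquired alterations, above all in CDKN2A, and in pigment cells the CDK2 gene is known as a target of the lineage factor MITF.

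In the RefSeq annotation of GRCh38.p14, CDKN1B lies on chromosome 12 from 12717368 to 12722369, CDK4 on chromosome 12 from 57747727 to 57752310, and CDK2 on chromosome 12 from 55966830 to 55972789. CDK2 neighbours PMEL, which encodes a melanosome matrix protein, with 120 bases between the annotated genes. CDK6 lies on chromosome 7 from 92604921 to 92836573, CDKN2A on chromosome 9 from 21967752 to 21995324, CCND1 on chromosome 11 from 69641156 to 69654474, and RB1 on chromosome 13 from 48303751 to 48481890. CDKN2A has 2 annotated start regions, and its 2 transcripts are treated separately here, so both upstream sequences are shown. Those of CDK4 and CDKN1B are shown because these genes differed in which libraries were high, though by the narrow gaps given below. That choice was made from these same data, and whether the sequences bear on the levels was not tested. No upstream sequence was available here for CDK2 or CCND1. Each sequence is the 250 bases before a RefSeq start site, on the strand of the gene, and capitals mark a match to CACGTG (an E-box, the core bound by MITF, MYC and related factors) or to GGGCGG or its reverse complement CCGCCC (a GC box). The windows are chr12:57752311-57752560 (minus strand) for CDK4, chr12:12717118-12717367 (plus strand) for CDKN1B, and chr9:21995325-21995574 and chr9:21974858-21975107 (both minus strand) for the upstream and downstream starts of CDKN2A.
CDK4: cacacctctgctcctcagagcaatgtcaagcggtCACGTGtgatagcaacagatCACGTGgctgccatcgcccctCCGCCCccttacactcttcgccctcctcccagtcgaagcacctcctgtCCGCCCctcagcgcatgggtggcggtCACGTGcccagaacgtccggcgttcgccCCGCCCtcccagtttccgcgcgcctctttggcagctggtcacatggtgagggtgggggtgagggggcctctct
CDKN1B: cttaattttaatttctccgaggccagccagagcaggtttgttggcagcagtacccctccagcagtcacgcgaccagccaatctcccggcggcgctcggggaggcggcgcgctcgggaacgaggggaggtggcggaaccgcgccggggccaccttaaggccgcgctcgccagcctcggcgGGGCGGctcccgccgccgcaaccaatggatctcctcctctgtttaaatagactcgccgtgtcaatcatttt
CDKN2A upstream start: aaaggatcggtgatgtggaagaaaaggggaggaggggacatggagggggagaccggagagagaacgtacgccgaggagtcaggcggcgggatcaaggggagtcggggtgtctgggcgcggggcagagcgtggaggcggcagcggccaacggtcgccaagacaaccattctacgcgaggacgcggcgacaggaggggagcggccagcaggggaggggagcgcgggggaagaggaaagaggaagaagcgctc
CDKN2A downstream start: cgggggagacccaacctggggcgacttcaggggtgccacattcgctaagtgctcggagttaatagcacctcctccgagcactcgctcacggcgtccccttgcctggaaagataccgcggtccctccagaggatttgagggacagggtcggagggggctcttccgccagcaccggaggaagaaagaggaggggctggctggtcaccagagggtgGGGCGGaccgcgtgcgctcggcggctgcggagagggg

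The CDK4 window held 3 E-boxes, at 216, 196 and 101 bases before the start site, and 3 GC boxes. An E-box of this form was present in 6.32% of 34943 RefSeq windows of the same length, and a GC box in 42.5%. The CDKN1B window and that of the downstream CDKN2A start each held 1 GC box and no such E-box, and the upstream CDKN2A window held neither. Searches on both strands for the interferon response element GAAANNGAAA (3.02% of all windows), the ETS-IRF composite GGAANNGAAA (2.41%) and the E2F site TTTNGCGC (1.49%) found no match in these 4 windows, which says only that these letters are not there. The GC content was 65.6% for CDK4, 64.4% for CDKN1B and 66.8% for each CDKN2A window, against a median of 58.0% over all windows. The annotation does not say which CDKN2A start belongs to which of the 2 transcripts, and neither was assigned to a protein here. The windows of CDK6 and RB1, which are not shown, held no E-box of the form CACGTG. The RB1 window, chr13:48476200-48476449, lies inside the annotated gene before an internal start site. The sequence before the first base of the RB1 gene, at 48303751, was not searched.

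Total estimated counts ran from 129989698 to 203758441 per library. The 8 transcripts had between 3276 and 146461 estimated fragments in a library, so that counting error alone (the coefficient of variation of a Poisson count) was between 0.261% and 1.75%. The libraries did not part by label. CPM are counts scaled to a library total of 1e+06. For log2 CPM that total was adjusted by TMM normalization and a prior count of 2 was added. On the first principal component of log2 CPM, which carried 33.6% of the variance, siIRF4 replicate 1 (111) lay with siCTRL replicates 1 and 3 (128 and 173). siIRF4 replicates 2 and 3 (-199 and -80.8) lay with siCTRL replicate 2 (-132). Fold changes are therefore also given without siIRF4 replicate 1 and siCTRL replicate 2, while levels, spreads, ratios and likeness use all 6 libraries. Whether the labels of these 2 libraries were exchanged was not tested, so each mean, fold change and interval below compares the libraries as labelled.

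Levels below are the TPM values deposited by the authors, scaled by transcript length and to a library total of 1e+06. They can be compared between transcripts. The part of its gene's level that each transcript holds was not computed, so an order of these transcripts is not an order of genes. CCND1, the gene of cyclin D1, is the regulatory partner of CDK4 and CDK6. Its transcript ENST00000227507.2 had 159.3, 74.2 and 73.6 TPM in siIRF4 replicates 1, 2 and 3 and 163.3, 80.3 and 109.1 TPM in siCTRL replicates 1, 2 and 3. Replicate 1 of each label was at least 159.3 TPM, the other 4 libraries were at most 109.1 TPM, and the groups overlapped. The means were 102 ± 49.3 TPM (SD, n = 3) in siIRF4 and 118 ± 42.1 TPM (SD, n = 3) in siCTRL.

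CDK4, the main cyclin D kinase, was the steadiest of the 3 kinases. Its transcript ENST00000257904.10 had 194.7, 169.9 and 154.7 TPM in siIRF4 replicates 1 to 3 and 212.0, 156.8 and 183.9 TPM in siCTRL replicates 1 to 3. The highest library was 1.37 times the lowest, and the groups overlapped, with means of 173 ± 20.2 TPM (SD, n = 3) in siIRF4 and 184 ± 27.6 TPM (SD, n = 3) in siCTRL.

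CDK6, the second cyclin D kinase, had the least abundant of the transcripts measured. Its long transcript ENST00000265734.8 (11612 bases) had 12.5, 14.0 and 14.1 TPM in siIRF4 replicates 1 to 3 and 8.51, 19.4 and 5.21 TPM in siCTRL replicates 1 to 3. The siIRF4 libraries lay close together (13.5 ± 0.909 TPM, SD, n = 3), inside the range of the siCTRL libraries, which spanned 3.72 times (11.0 ± 7.42 TPM, SD, n = 3). Whether that difference in spread between the labels exceeds chance was not tested.

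CDK2, the cyclin E and cyclin A kinase that acts at S phase entry, had the most abundant of the transcripts measured. It also had the largest pooled SD of log2 CPM between libraries of a label (0.86). Its transcript ENST00000266970.8 had 594.5, 211.1 and 257.2 TPM in siIRF4 replicates 1 to 3 and 678.1, 230.8 and 649.9 TPM in siCTRL replicates 1 to 3. The values split within both labels. siIRF4 replicate 1 and siCTRL replicates 1 and 3 reached at least 594.5 TPM, and the other 3 libraries stayed at or under 257.2 TPM, a gap of 2.31 times. Within a label the highest library was 2.82 times the lowest in siIRF4 and 2.94 times in siCTRL. By TPM the CDK2 transcript ranked between 165 and 596 among the 187626 transcripts of a library. The level of the neighbouring PMEL gene was not analysed here.

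**Figure D1:**
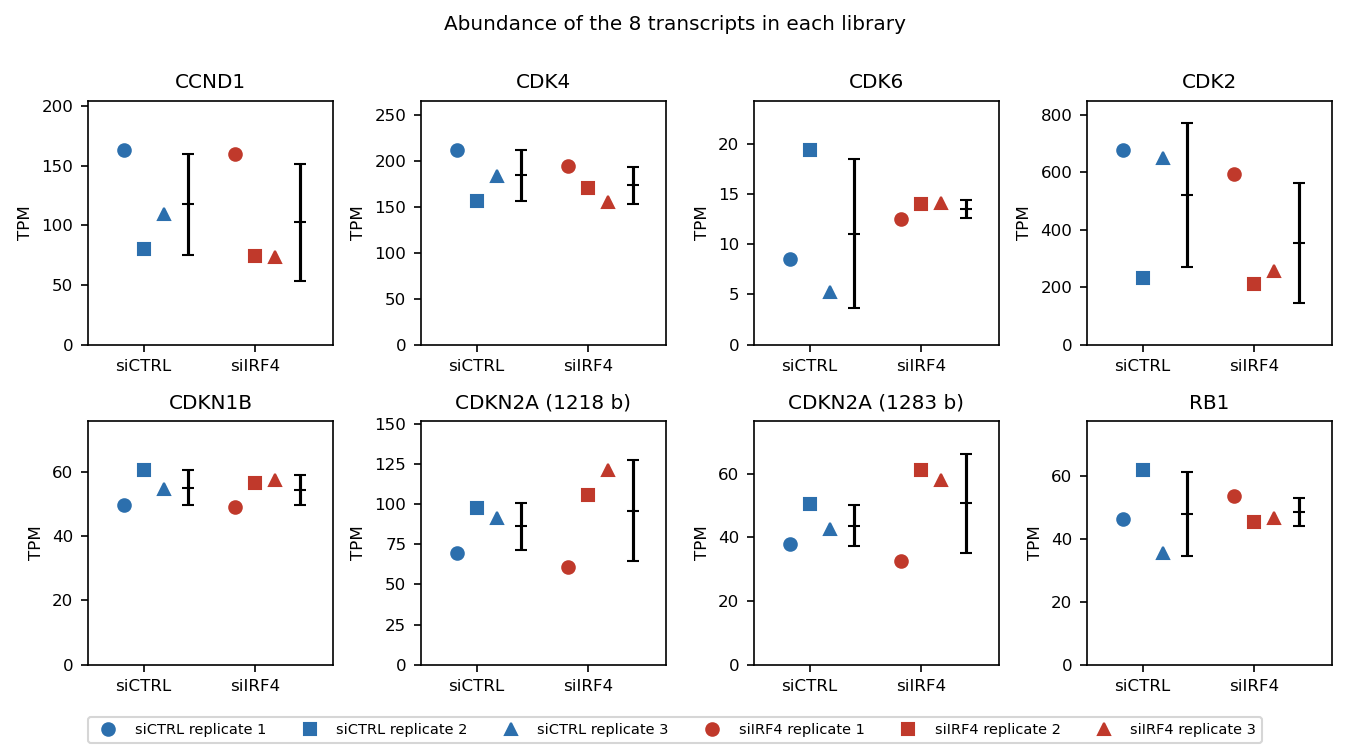
TPM of the 8 transcripts (vertical axes from 0) in the 3 siCTRL (blue) and 3 siIRF4 (red) libraries, with symbols for replicate numbers and the mean with its SD in black. CDK2 and CCND1 are high in siIRF4 replicate 1 and low in siCTRL replicate 2, each against the other libraries of its label, and the labels overlap for all 8 transcripts.

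Among the inhibitors, CDKN1B, which encodes p27, varied least. Its transcript ENST00000228872.8 had 48.9, 56.4 and 57.6 TPM in siIRF4 replicates 1 to 3 and 49.7, 60.5 and 54.6 TPM in siCTRL replicates 1 to 3. All 6 libraries lay within 1.24 times of each other, with means of 54.3 ± 4.68 TPM (SD, n = 3) in siIRF4 and 54.9 ± 5.42 TPM (SD, n = 3) in siCTRL.

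CDKN2A encodes 2 unrelated proteins from alternative first exons, the INK4 inhibitor p16 and the p53 activator p14ARF. Transcript ENST00000304494.9 (1218 bases) had 60.8, 105.8 and 121.2 TPM in siIRF4 replicates 1 to 3 and 69.4, 97.4 and 91.5 TPM in siCTRL replicates 1 to 3. Transcript ENST00000579755.1 (1283 bases) had 32.7, 61.1 and 58.0 TPM in siIRF4 replicates 1 to 3 and 38.0, 50.4 and 42.7 TPM in siCTRL replicates 1 to 3. Both were lowest in siIRF4 replicate 1 and next lowest in siCTRL replicate 1, and their groups overlapped. The 2 transcripts differed in level, and ENST00000304494.9 held between 63.4% and 68.2% of their summed TPM in every library. That share was 65.3% ± 2.14 (SD, n = 3) in siIRF4 and 66.2% ± 1.81 (SD, n = 3) in siCTRL, a difference of -0.89 percentage points (exact permutation test, two-sided p = 0.6, where 0.1 is the smallest p that 3 against 3 libraries allow). Transcripts of 1 gene with common exons share fragments whose origin is estimated, so the 2 levels are not independent measurements.

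RB1, the target of these kinases, had 53.8, 45.5 and 46.7 TPM of ENST00000267163.5 in siIRF4 replicates 1 to 3 and 46.5, 62.0 and 35.5 TPM in siCTRL replicates 1 to 3. The siIRF4 values (48.7 ± 4.46 TPM, SD, n = 3) lay inside the range of the siCTRL values (48.0 ± 13.3 TPM, SD, n = 3). RB1 was highest in siCTRL replicate 2 and lowest in siCTRL replicate 3, as was CDK6.

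Over the 6 libraries the order of mean levels was CDK2 (437 TPM), CDK4 (179 TPM), CCND1 (110 TPM), the 1218-base CDKN2A transcript (91.0 TPM), CDKN1B (54.6 TPM), RB1 (48.3 TPM), the 1283-base CDKN2A transcript (47.1 TPM) and CDK6 (12.3 TPM). CDK2 lay above CDK4, and CDK4 above CCND1, in 6 of 6 libraries. CCND1 lay above the 1218-base CDKN2A transcript in 3 of 6 libraries, CDKN1B above RB1 in 4 of 6, and RB1 above the 1283-base CDKN2A transcript in 3 of 6, so these neighbours did not keep their order. CDK6 was the lowest in every library.

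Setting siIRF4 against siCTRL addresses whether the siRNA to IRF4 alters G1 regulators. In edgeR (quasi-likelihood test on estimated counts, Benjamini-Hochberg over 83831 transcripts), 0 of the 8 transcripts passed an adjusted p of 0.05, and each had an adjusted p that rounds to 1. The background was 0% of all transcripts tested, with a smallest adjusted p of 0.514. At an unadjusted p under 0.05 there were 0 of 8, beside 2.14% of all tested, and DESeq2 called 0 of 8 beside 0.182% of the transcripts to which it gave an adjusted p. CPM values of the groups did not overlap for 0 of the 8 transcripts, beside 7.11% of all tested. So few transcripts cannot show a departure from that share. Fold changes were positive for 4 and negative for 4 of the 8. The median absolute log2 fold change was 0.17 among the 8, 0.26 among all 83831 tested and 0.11 among the 13437 tested that average 10 CPM or more.

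The precision differed between members, as the intervals show. CDKN1B had a log2 fold change of -0.02 (SE 0.13), with a 95% interval from -0.32 to 0.29. CDK4 had -0.08 (SE 0.17), with an interval from -0.49 to 0.33, and RB1 had 0.02 (SE 0.22), from -0.50 to 0.54. These are the members for which the libraries limit a change most closely. The 1218-base CDKN2A transcript had 0.16 (SE 0.26), from -0.46 to 0.78, and the 1283-base transcript had 0.22 (SE 0.25), from -0.38 to 0.82. CCND1 had -0.19 (SE 0.40), from -1.15 to 0.77, CDK6 had 0.29 (SE 0.44), from -0.78 to 1.35, and CDK2 had -0.54 (SE 0.54), from -1.83 to 0.75. A 2-fold decrease lies inside the intervals of CCND1 and CDK2, and a 2-fold increase inside that of CDK6. The CDK6 value depended on the fit: it was 0.50 with the replicate number as a block and from 0.45 to 0.50 with limma.

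**Figure D2:**
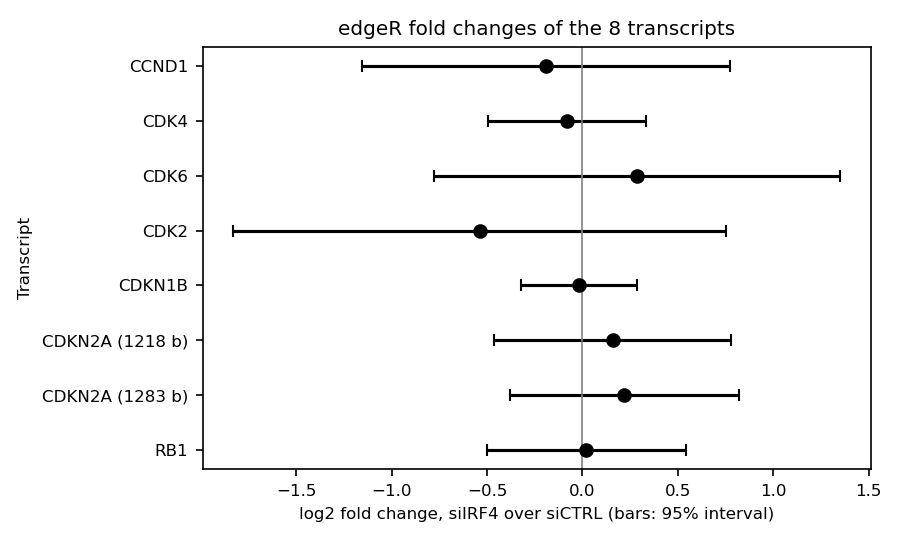
The log2 fold change of siIRF4 over siCTRL (horizontal axis) for each of the 8 transcripts (vertical axis), from edgeR, with bars for the 95% interval. Every interval includes 0, and the widest belongs to CDK2, from -1.83 to 0.75.

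Leaving out single libraries moved the fold changes of all 8 transcripts, and those of CDKN1B, CDK4, CCND1, CDK6 and RB1 changed sign in at least 1 such fit. Without siIRF4 replicate 1, the log2 fold change was -1.18 for CDK2 and -0.69 for CCND1. Without siCTRL replicate 2, it was -0.89 for CDK2, -0.40 for CCND1 and 0.97 for CDK6. Without siCTRL replicate 1, CDK2 had -0.30 and CCND1 turned to 0.12, and without siCTRL replicate 3, CDK6 turned to -0.04. CDK2 had -0.28 without siIRF4 replicate 2, -0.32 without siIRF4 replicate 3 and -0.33 without siCTRL replicate 3, and CCND1 had 0.04 without siIRF4 replicate 3. The 1218-base and 1283-base CDKN2A transcripts had 0.38 and 0.44 without siIRF4 replicate 1 and 0.25 and 0.33 without siCTRL replicate 2. They had 0.06 and 0.04 without siIRF4 replicate 2, 0.01 and 0.16 without siIRF4 replicate 3 and 0.02 and 0.12 without siCTRL replicate 1. The smallest edgeR adjusted p among all these was 0.936. With siIRF4 replicate 1 and siCTRL replicate 2 both left out, CDK2 had -1.53 (edgeR adjusted p = 0.111), CDK6 1.01 (adjusted p = 0.235) and CCND1 -0.91 (adjusted p = 0.219). In that edgeR fit the CDKN2A transcripts had 0.48 (adjusted p = 0.414) and 0.55 (adjusted p = 0.269). Those 2 libraries were picked because of their values, so the last fit describes the remaining 4 libraries and tests nothing about the siRNA.

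The same 3 libraries held the 3 highest or the 3 lowest values of most members, though often not by the widest gap. siIRF4 replicate 1 and siCTRL replicates 1 and 3 held the 3 highest TPM values of CDK2, CCND1 and CDK4 (3 of 8 transcripts). They held the 3 lowest of CDKN1B, CDK6 and both CDKN2A transcripts (4 of 8), and RB1 followed neither order. The gap between the third and the fourth highest library was 2.31 times for CDK2 and 1.36 times for CCND1. It was 1.18 times for the 1283-base CDKN2A transcript, 1.13 times for CDK6, 1.08 times for CDK4, 1.07 times for the 1218-base CDKN2A transcript and 1.03 times for CDKN1B. Of these gaps the widest were those of CDK2 and CCND1. Some members had a wider gap elsewhere. CCND1 fell from 159.3 TPM in siIRF4 replicate 1 to 109.1 TPM in siCTRL replicate 3. CDK6 fell from 12.5 TPM in siIRF4 replicate 1 to 8.51 TPM in siCTRL replicate 1. The 1218-base CDKN2A transcript fell from 91.5 TPM in siCTRL replicate 3 to 69.4 TPM in siCTRL replicate 1. The order of these 3 libraries against the rest follows the first principal component of all transcripts and not the labels. The share of all tested transcripts with this split was not counted, so it is not shown to be particular to the members. The choice of these 3 libraries was made from these same data. The mean fragment length ran from 271.5 to 297.3 bases among these 3 libraries and from 262.7 to 294.5 bases among the other 3. The ranges overlap, and the part of fragment length or library handling in the order was not tested. In RNA from whole cultures, fewer cells with a transcript and less of it per cell cannot be told apart.

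**Figure D3:**
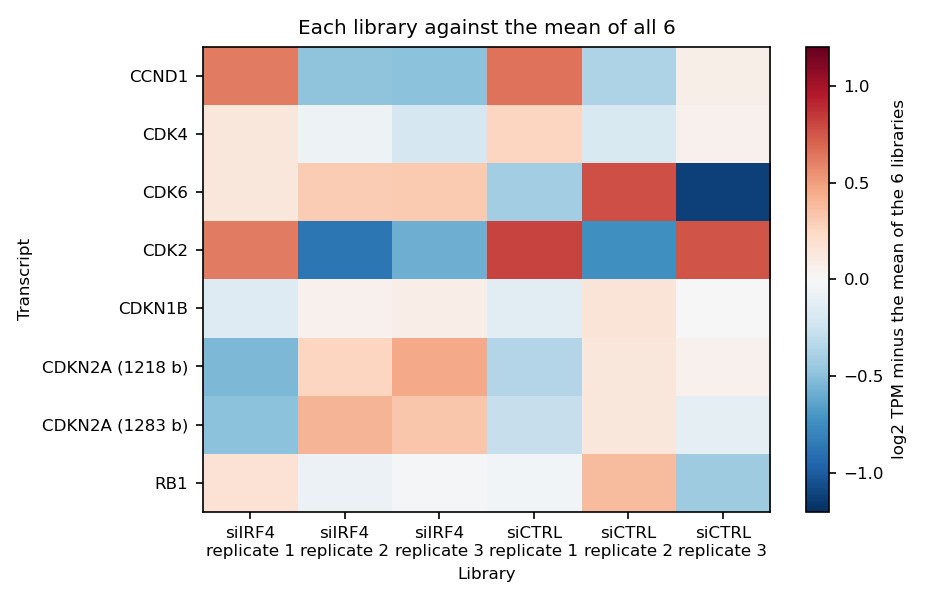
Log2 TPM of each transcript (rows) in each library (columns) minus its mean over the 6 libraries, with red above and blue below that mean. CDK2 and CCND1 are red in siIRF4 replicate 1 and siCTRL replicates 1 and 3, where the CDKN2A transcripts are mostly blue.

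Ratios of TPM between members restate the levels above, and so they moved with this order. CDK2 over CDK4 was 3.05, 1.24 and 1.66 in siIRF4 replicates 1 to 3 and 3.20, 1.47 and 3.53 in siCTRL replicates 1 to 3. CDK4 over CDK6 was 15.6, 12.1 and 11.0 in siIRF4 and 24.9, 8.09 and 35.3 in siCTRL. The CDK4 transcript thus exceeded the CDK6 transcript in every library. The summed CDKN2A pair over the summed CDK4 and CDK6 was 0.45, 0.91 and 1.06 in siIRF4 and 0.49, 0.84 and 0.71 in siCTRL. CDK2 over CDKN1B was 12.2, 3.75 and 4.47 in siIRF4 and 13.6, 3.81 and 11.9 in siCTRL. The labels overlapped in each of these ratios, and transcript ratios do not give ratios of protein.

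Compared with other transcripts of like abundance (a mean CPM within 2-fold), 7 of the 8 transcripts varied more than the median one between libraries of the same label, CDK2, CDK6 and CCND1 by most. The pooled SD of log2 CPM was 0.86 for CDK2, larger than for 97.4% of 313 such transcripts, whose median was 0.16. It was 0.68 for CDK6, above 94.3% of 3672 transcripts with a median of 0.20, and 0.61 for CCND1, above 93.8% of 923 transcripts with a median of 0.18. CDKN1B had 0.12, above 17.2% of 3847 transcripts. The CDKN2A transcripts, RB1 and CDK4 had between 0.23 and 0.39, each above 63.2% to 81.6% of their like. These percentages describe the libraries as labelled, with siIRF4 replicate 1 and siCTRL replicate 2 included, and carry no test. For CDK2 these were the libraries that stood apart within their labels. siIRF4 replicate 1 had 594.5 TPM against 211.1 and 257.2 TPM in siIRF4 replicates 2 and 3. siCTRL replicate 2 had 230.8 TPM against 678.1 and 649.9 TPM in siCTRL replicates 1 and 3.

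**Figure D4:**
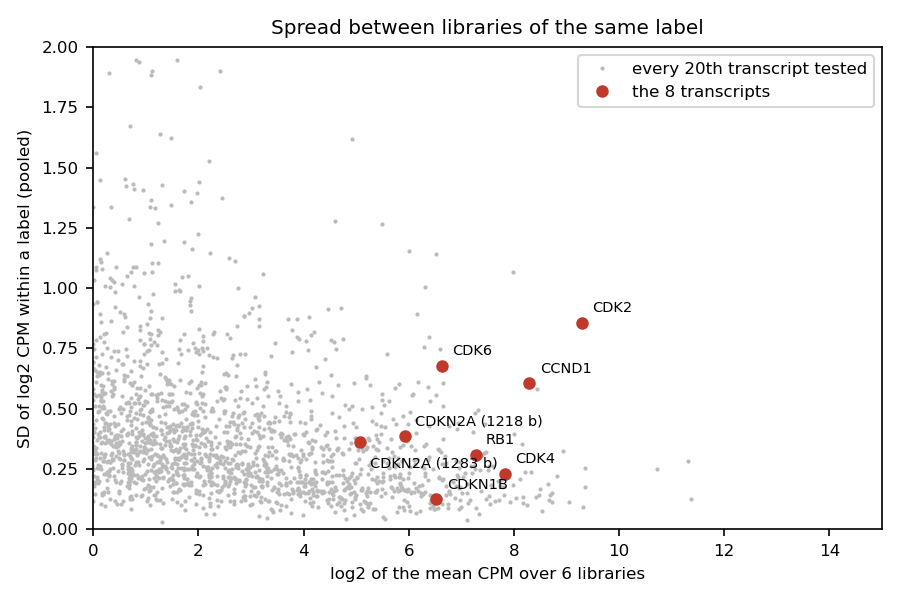
Pooled SD of log2 CPM within a label (vertical axis) against the log2 of the mean CPM (horizontal axis) for the 8 transcripts in red and every 20th tested transcript in grey, with grey points outside the axes not drawn. CDK2, CCND1 and CDK6 lie above most transcripts of their level, and CDKN1B lies low.

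Likeness of pattern was measured as the mean absolute difference of centred log2 CPM over the 6 libraries, among transcripts averaging 5 CPM or more. Of 18542 others, the 1283-base CDKN2A transcript ranked 67 in likeness to the 1218-base one, at a difference of 0.09. In the other direction, the 1218-base transcript ranked 144 in likeness to the 1283-base one. CCND1 ranked 523 in likeness to CDK2, at 0.28, while CDK2 ranked 1482 in likeness to CCND1. The transcript most like CDK2 was ENST00000331565.4 (0.05), and that most like CCND1 was ENST00000345146.6 (0.04). The files do not pair these identifiers with genes. With 6 libraries and so many transcripts, close matches arise easily, and they are a description only.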

How the data were processed

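The authors deposited 1 table per RNA-seq library with estimated counts and TPM for 187626 Ensembl transcripts, per the file headers. The submitters' processing notes name kallisto, sleuth and Bowtie2 and the builds GRCh38 and hg19, without roles, and versions are not given in the sources used here. TPM values were used as deposited by the authors. Estimated counts were rounded and tested with edgeR 4.0.16 (quasi-likelihood, TMM, filterByExpr, R 4.3.3), two-sided, without a replicate block. The filter kept 83831 transcripts with 99.87% of the count. Standard errors are the absolute log2 fold change over the square root of F, and 95% intervals use its degrees of freedom. Counts could not be summed per gene, so the fit was made per transcript. The edgeR script was tested on simulated data. All pairs of libraries differed beyond sampling noise (chi-square per degree of freedom at least 34.5). Exact permutation tests used SciPy 1.17.1. Promoter sequences are RefSeq's. Named are all members with an assigned transcript and, for likeness, the nearest transcript, of which 2 are printed. The members and lists were chosen with earlier results of these data known. The ChIP peak lists, whose contig names are those of hg19, were not used, as no annotation in that build was used here. Alternatives were DESeq2 1.42.0, limma 3.58.1 (voom, log2(TPM + 1), log2(TPM + 0.1)), other normalizations and filters, a length offset, the replicate block and leaving out libraries.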

Additional observations from a re-analysis of the deposited data

How the results depend on the processing

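Every one of the 8 transcripts stayed above an adjusted p of 0.05 in 17 alternative fits, where the smallest was 0.936. The number of transcripts called over the whole table was 0 with edgeR and limma-voom, under each normalization, filter and left-out library, 190 with DESeq2 (95 higher) and 8 with limma on log2(TPM + 0.1); the cause was not tested. The unadjusted number, 1791, ran from 1575 to 4301 when 1 of the 6 libraries was left out, with the highest without siCTRL replicate 2 (4301) and siIRF4 replicate 1 (4005). It was 10811 with both left out, a choice made after seeing the data.

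Directions of small differences turned when libraries were left out. With 1 library or both of these left out, the edgeR log2 fold change ran from -0.087 to 0.10 for CDKN1B, from -0.30 to 0.037 for CDK4, from -0.91 to 0.12 for CCND1, from -0.044 to 1.01 for CDK6 and from -0.15 to 0.25 for RB1. CDK2 ran from -1.53 to -0.28, and the 1218-base and 1283-base CDKN2A transcripts from 0.0092 to 0.48 and from 0.036 to 0.55, all 3 without a change of sign. With 1 left out, the log2 ratio of mean TPM ran from -0.085 to 0.057 for CDKN1B, -0.048 to 0.40 for the 1218-base CDKN2A transcript, -0.19 to 0.023 for CDK4, -0.045 to 0.98 for CDK6, -0.67 to 0.11 for CCND1 and -0.16 to 0.25 for RB1. The difference in CDKN2A share ran from -2.03 to 0.088 percentage points.

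With the replicate block edgeR made 0 calls, and the unadjusted number was 2746, or 2728 with the length offset as well. The CDK6 log2 fold change, 0.29 without it, was 0.50 with the block and 0.52 with block and offset, and that of RB1 went from 0.02 to 0.05 and 0.07. Deviations of same-numbered libraries correlated across transcripts at 0.20, 0.24 and 0.04, and 4 of 6 libraries correlated best with their own number. These values do not settle whether the numbers mark pairs. The main fit has no block because none is stated for the study. Not run were all gene-level fits, the level of IRF4 and peaks near the members. Counting error was at most 1.75% for the 8 transcripts, against coefficients of variation from 6.72% to 67.2% between libraries of a label. The error of assigning shared fragments to transcripts is not part of that counting error and was not measured.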
